A study of Arabidopsis thaliana with 6 samples.

Results

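The UMAMIT genes (Usually Multiple Acids Move In and out Transporters, also annotated as nodulin MtN21-like or EamA-like transporters) were described in 14-day-old Arabidopsis thaliana seedlings from wild-type (WT) plants and pkl mutants, grown in long days. RNA of whole seedlings had been sequenced in 3 WT and 3 pkl libraries. The mutated gene, PICKLE, codes for a CHD3 chromatin remodeler. The labels give no pkl allele, ecotype or strandedness of the libraries, and do not say whether replicates were separate cultures. The family was taken as 44 genes by gene identifier. It was chosen by values of the same WT and pkl contrast, namely its levels and folds in the authors' deposited table, so those values describe the family and test nothing about it.

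The authors' deposited table held 2896 loci, all marked as changed and all lower in pkl, with 1 FPKM per genotype (fragments per kilobase of transcript and library size). Of the 44 genes, 14 had a row, in 13 loci, because UMAMIT26 and UMAMIT27 shared 1 locus. The other 30 genes had no row, and their levels and direction were not analysed here. No value per library was used, so no standard deviation, interval or depth can be given for any level, and overlap between replicates could not be examined. The PKL transcript itself (AT2G25170) was listed at 19.2 FPKM in WT against 6.79 FPKM in pkl.

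UMAMIT proteins are plant membrane proteins with several membrane-spanning helices. Those studied in Arabidopsis let amino acids cross the plasma membrane or the vacuolar membrane down their gradient. Several act where amino acids leave cells, as in the unloading of the phloem in roots and the release of amino acids from the seed coat to the embryo. Another member, WAT1 (UMAMIT5), moves auxin across the vacuolar membrane and is needed for secondary walls of fibres. Import of amino acids into cells is the work of other families, such as the amino acid permeases.

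The 13 loci that hold 14 UMAMIT genes were lower in pkl, by 1.25-fold to 10.6-fold. UMAMIT17 fell most, followed by UMAMIT31, UMAMIT32, UMAMIT20 and UMAMIT34, which were each over 4-fold lower. The places of UMAMIT32 and UMAMIT34 rest on levels under 1 FPKM in pkl: with 1 FPKM added to each level their log2 fold changes were -0.59 and -1.14, against -2.34 and -2.16 without. The share of members with a row was 31.8% (14 of 44). For comparison, all 2896 lower loci made up 14.8% of 19554 tests, a number recovered from the p-values and q-values. The bases differ: the 44 are annotated genes, tested or not, while the 14.8% counts loci among tests. The same holds wherever a share of genes is set beside 14.8%. Of all annotated protein-coding genes, 9.56% to 12.3% had a row, by chromosome. Levels were at least 2-fold lower for 7 members, 15.9% of the family, and for 748 loci, 3.83% of all tests. Nothing is read from these contrasts, since the family was chosen with these values known.

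The median log2 fold change of the 13 loci was -1.50, a 2.83-fold lower level, against -0.60 and 1.52-fold over all 2896 loci of the table. With at least 1 FPKM in both genotypes it was -0.94, against -0.56 in the table. With at least 5 FPKM in WT the same 9 loci remained, so the median was again -0.94, against -0.53. With 1 FPKM added to each level it was -0.86 (1.82-fold), against -0.51. Of the 13 loci, 7 (53.8%) were at least 2-fold lower and 5 (38.5%) at least 4-fold lower. In the whole table these shares were 25.8% and 4.56%. The WT levels of the 13 loci lay between 0.712 and 27.2 FPKM. The 1783 loci of the table within that range had a median fold of 1.62, and 31.1% of them were at least 2-fold lower. Every locus here had to pass the authors' test to be listed, so the medians describe listed loci alone and not the family as a whole.

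**Figure D1:**
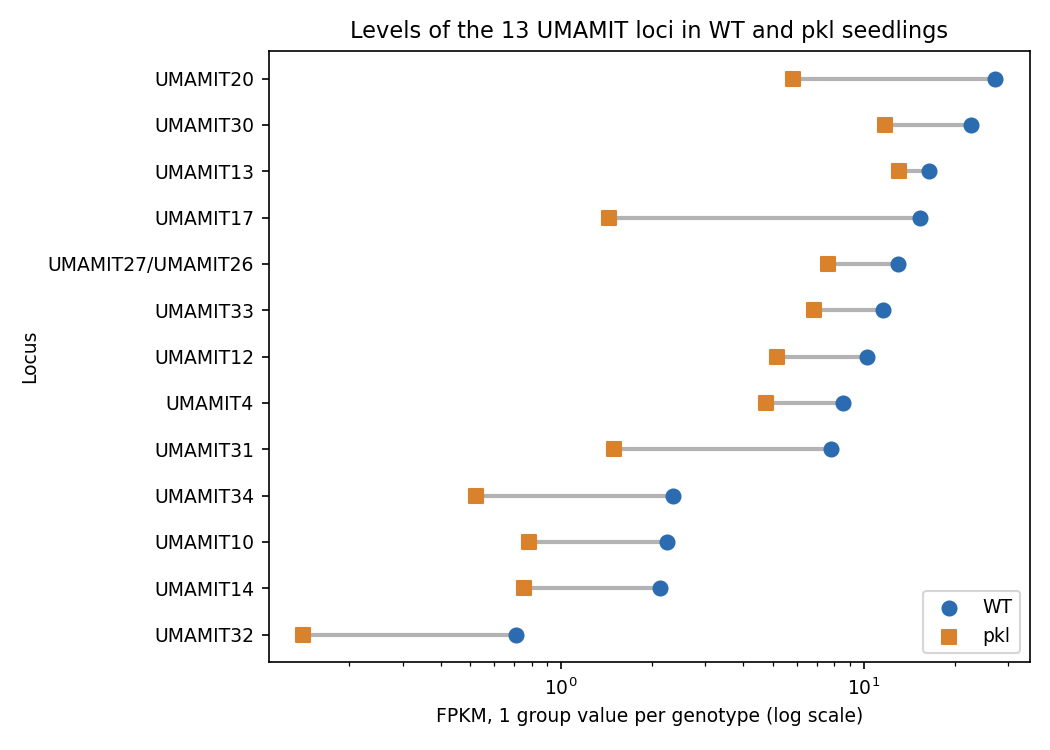
Levels of the 13 UMAMIT loci in FPKM on a log scale, 1 group value per genotype combining 3 libraries (circles WT, squares pkl), ordered by the WT level. Each pkl value lies left of its WT value, and the widest gap is that of UMAMIT17, from 15.3 to 1.44 FPKM.

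**Figure D2:**
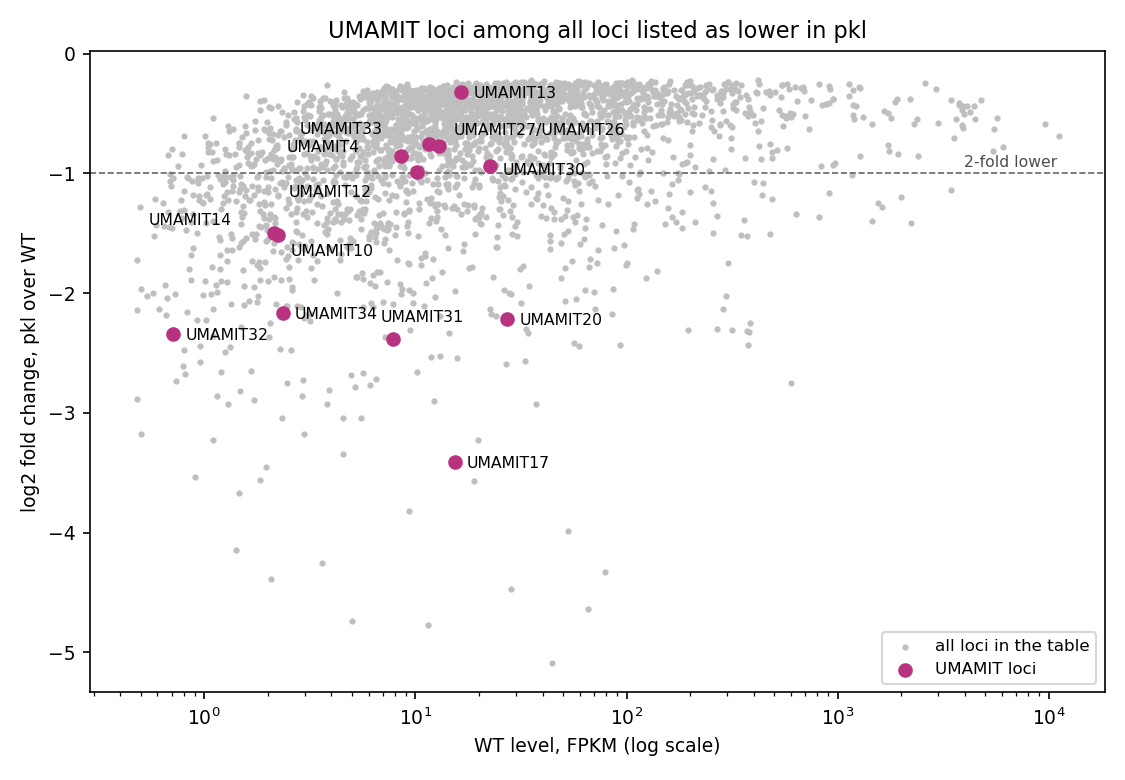
The log2 fold change of pkl over WT against the WT level in FPKM (log scale) for all 2896 loci of the table (grey) and the 13 UMAMIT loci (coloured). The dashed line marks a 2-fold lower level. The UMAMIT loci run from -0.32 for UMAMIT13 to -3.41 for UMAMIT17.

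The largest losses in FPKM lay in the neighbouring genes UMAMIT20 and UMAMIT17 on chromosome 4. UMAMIT17 (AT4G08300, TAIR10 chromosome 4, positions 5244891 to 5248342) was listed at 15.3 FPKM in WT against 1.44 FPKM in pkl. This was 10.6-fold lower (log2 fold change -3.41, with a q-value of 0.000338 in the authors' deposited table), and it ranked 17th of the 2896 loci by fold. That q-value was the smallest of the 2896 loci, shared by 1428 of them (49.3%) and by 10 of the 13 UMAMIT loci, so it ranks none of these. UMAMIT20 (AT4G08290, positions 5238906 to 5241034) was listed at 27.2 FPKM in WT against 5.85 FPKM in pkl, 4.65-fold lower (log2 fold change -2.22, the same q-value). In WT it had the highest level of the 13 loci and in pkl the fifth highest. UMAMIT17 went from the fourth highest to the ninth. The genes lie on the same strand with 3752 bases between them and no other annotated gene in that stretch. UMAMIT20 was 1.77 times as high as UMAMIT17 in WT and 4.05 times as high in pkl. Neither ratio has an error, since libraries were pooled.

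The 250 bases before the annotated starts of both genes are shown because these neighbours carried the largest combined loss. They lie at chr4:5238523-5238772 for UMAMIT20 and chr4:5244615-5244864 for UMAMIT17, both on the plus strand (RefSeq, TAIR10.1). Capitals mark a match to 1 of 4 motifs, searched on both strands: the GAGA repeat GAGAGA, the telo-box AAACCCTA, the G-box CACGTG, and ACTCAT, an element of proline-responsive promoters. GAGA repeats and telo-boxes are known from Polycomb response elements in Arabidopsis, and the G-box is bound by bZIP and bHLH transcription factors.
UMAMIT20: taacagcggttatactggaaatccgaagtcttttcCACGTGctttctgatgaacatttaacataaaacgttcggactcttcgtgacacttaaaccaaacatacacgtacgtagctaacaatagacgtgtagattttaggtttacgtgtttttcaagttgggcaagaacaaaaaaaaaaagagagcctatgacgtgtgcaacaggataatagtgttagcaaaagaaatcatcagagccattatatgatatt
UMAMIT17: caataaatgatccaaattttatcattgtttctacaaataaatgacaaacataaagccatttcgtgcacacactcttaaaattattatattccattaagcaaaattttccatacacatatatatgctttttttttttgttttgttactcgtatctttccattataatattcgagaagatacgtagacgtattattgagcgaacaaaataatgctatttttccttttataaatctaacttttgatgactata

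UMAMIT20 held a G-box starting 215 bases before the gene start, and the UMAMIT17 window held none of the 4 motifs. The annotated start of UMAMIT20 lies upstream of the start of its locus in the table, at positions 5238773 and 5238906, so the window is that of the annotation. When the windows were aligned, 56.0% of bases were identical, against a median of 54.4% over the 91 pairs among the 14 genes with a row. The longest run of bases that both windows contained was 8.

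For UMAMIT17, the coding sequences gave another order of relatedness than the map. The coding sequence closest to that of UMAMIT17 was not its neighbour UMAMIT20 but UMAMIT18 on chromosome 1, also called SIAR1 (Siliques Are Red 1), at 76.8% identity over the shorter sequence. UMAMIT18 had no row. UMAMIT20 was closest to UMAMIT13 on chromosome 2, at 62.5%, close to its identity with UMAMIT14 (62.4%) and with its neighbour UMAMIT17 (61.1%). The median over all 946 pairs of members was 57.9%.

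UMAMIT31 and UMAMIT30 form another unequal pair on chromosome 4. UMAMIT31 (AT4G01440, positions 596399 to 598718) was listed at 7.81 FPKM in WT against 1.5 FPKM in pkl, 5.21-fold lower (log2 fold change -2.38). UMAMIT30 (AT4G01450, positions 608454 to 610724) was listed at 22.5 FPKM in WT against 11.7 FPKM in pkl, 1.92-fold lower (log2 fold change -0.94). UMAMIT30 kept the second highest level of the 13 loci in both genotypes. Both had a q-value of 0.000338 in the authors' deposited table. The first gene of this cluster, UMAMIT29 (AT4G01430), known as an exporter in developing seeds, had no row. The level of UMAMIT31 was 0.346 of that of UMAMIT30 in WT and 0.128 of it in pkl. These genes were each other's closest relatives among the 44, with 71.0% identity of the coding sequences.

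On chromosome 2, UMAMIT13 and UMAMIT12 lie side by side, 1275 bases apart. UMAMIT13 (AT2G37450, positions 15722506 to 15725062) changed least of all 13 loci, from 16.4 FPKM in WT to 13.1 FPKM in pkl, 1.25-fold lower (log2 fold change -0.32, with a q-value of 0.0238 in the authors' deposited table). UMAMIT12 (AT2G37460, positions 15726448 to 15729098) went from 10.2 to 5.16 FPKM, 1.98-fold lower (log2 fold change -0.99, with a q-value of 0.000338 in the authors' deposited table). UMAMIT13 ranked 3 in WT and 1 in pkl by level. It was 1.60 times as high as UMAMIT12 in WT and 2.54 times as high in pkl. Their coding sequences were 83.8% identical, again the closest relatives of each other.

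The windows of this pair are shown because both hold the GAGA repeat near their upstream end, 238 bases before the start of UMAMIT13 and 248 bases before that of UMAMIT12. They lie at chr2:15725063-15725312 and chr2:15729171-15729420 on the minus strand and are printed in the direction of transcription, with motif matches in capitals.
UMAMIT13: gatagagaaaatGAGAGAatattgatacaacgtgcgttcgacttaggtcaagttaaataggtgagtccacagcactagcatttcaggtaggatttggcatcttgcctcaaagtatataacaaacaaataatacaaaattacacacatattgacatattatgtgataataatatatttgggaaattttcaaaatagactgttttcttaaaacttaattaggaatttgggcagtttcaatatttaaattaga
UMAMIT12: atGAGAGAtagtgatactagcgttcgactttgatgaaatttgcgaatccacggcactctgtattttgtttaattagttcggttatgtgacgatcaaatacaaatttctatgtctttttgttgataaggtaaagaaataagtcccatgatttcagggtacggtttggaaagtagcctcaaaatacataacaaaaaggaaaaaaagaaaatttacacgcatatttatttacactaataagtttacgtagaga

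Aligned, these windows were identical at 58.8% of bases, within the range of 50% to 59.6% over all 91 pairs, and their longest shared run was 11 bases.

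The remaining complete pair, UMAMIT27 (AT1G11450) and UMAMIT26 (AT1G11460) on chromosome 1, had been merged by the assembly into 1 locus at positions 3853199 to 3859409. The locus was listed at 12.99 FPKM in WT against 7.63 FPKM in pkl, 1.70-fold lower (log2 fold change -0.77, with a q-value of 0.000338 in the authors' deposited table). Their coding sequences were 93.8% identical, the highest value of all 946 pairs in the family, and no pair reached 95%. The table gives no level for either gene of this pair by itself, so how the fall was divided between them is unknown. Their windows before the start were identical at 57.6% of bases, within the range of 50% to 59.6% over all 91 pairs. The windows shared a run of 26 bases, but no background of run lengths was computed.

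**Figure D3:**
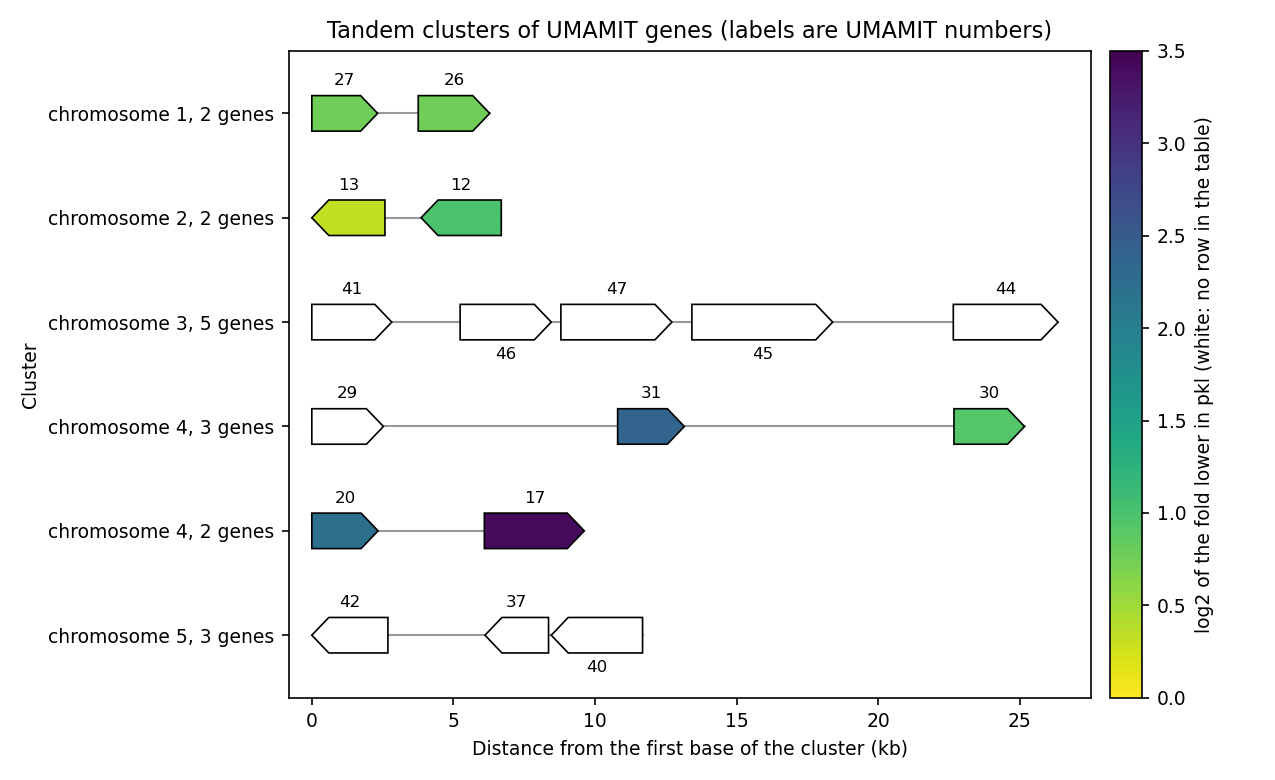
The 6 tandem clusters of UMAMIT genes, drawn to scale by distance from the first base of each cluster in kb, with arrows in the direction of transcription. Colour gives the log2 of the fold by which a gene was lower in pkl, white marks a gene without a row, and UMAMIT26 and UMAMIT27 share the value of their merged locus. The genes of 3 clusters were all listed, those of 2 clusters not at all.

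Of the 44 genes, 17 lay in 6 tandem clusters, defined by at most 20 kb between neighbouring members. In these clusters 8 of 17 genes (47.1%) had a row, and outside them 6 of 27 (22.2%), beside 14.8% over all tests. The difference was not tested, and nothing is read from it. The cluster of 5 genes on chromosome 3 (UMAMIT41, UMAMIT46, UMAMIT47, UMAMIT45 and UMAMIT44) and that of 3 genes on chromosome 5 (UMAMIT42, UMAMIT37 and UMAMIT40) had no row. By chromosome, members with a row were 2 of 12 on chromosome 1, 3 of 4 on chromosome 2, 3 of 10 on chromosome 3, 6 of 10 on chromosome 4 and 0 of 8 on chromosome 5. Of all annotated protein-coding genes, 11.1%, 10.9%, 9.56%, 12.3% and 10.3% had a row on chromosomes 1 to 5. That base includes genes the authors may not have tested, and the counts of members per chromosome are small. Of the 20 protein-coding genes outside the family that flank a member with a row, 2 had a row themselves. These were AT4G08280, next to UMAMIT20, which was 1.19-fold lower, and AT4G28030, next to UMAMIT33, which was 1.21-fold lower.

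UMAMIT33 and UMAMIT34, both on chromosome 4 but far apart, were each other's closest relatives at 63.1% identity. UMAMIT33 (AT4G28040, positions 13940346 to 13943737) was listed at 11.6 FPKM in WT against 6.85 FPKM in pkl, 1.69-fold lower (log2 fold change -0.76, with a q-value of 0.00961 in the authors' deposited table). UMAMIT34 (AT4G30420, positions 14877069 to 14880331) was listed at 2.35 FPKM in WT against 0.525 FPKM in pkl, 4.48-fold lower (log2 fold change -2.16, with a q-value of 0.000338 in the authors' deposited table). Both loci run past the annotated end of their gene into a tetraspanin gene on the opposite strand. TET7 covers 1476 bases (43.5%) of the UMAMIT33 locus, and TET9 covers 1549 bases (47.5%) of the UMAMIT34 locus. An annotated long non-coding RNA, AT4G08285, also overlaps 469 bases of the latter, within the stretches of the other genes. Without strand, reads of the overlapping genes cannot be told apart, so both values are uncertain. Neither tetraspanin gene had a row of its own.

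Of the 4 remaining genes, UMAMIT4, UMAMIT10 and UMAMIT14 each had a q-value of 0.000338 in the authors' deposited table. UMAMIT4 (AT3G18200, chromosome 3, positions 6234306 to 6236091) was listed at 8.57 FPKM in WT against 4.74 FPKM in pkl, 1.81-fold lower (log2 fold change -0.85). Its closest relative was WAT1, at 64.8% identity, which had no row. UMAMIT10 (AT3G56620, chromosome 3, positions 20972503 to 20974611) was listed at 2.25 FPKM in WT against 0.787 FPKM in pkl, 2.85-fold lower (log2 fold change -1.51). Its closest relative was UMAMIT11, at 76.5%, without a row.

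UMAMIT14 (AT2G39510, chromosome 2, positions 16491143 to 16493151), known for exporting amino acids from the root phloem and in seeds, was listed at 2.13 FPKM in WT against 0.753 FPKM in pkl. It was 2.83-fold lower (log2 fold change -1.50). Among the 13 loci, UMAMIT10 and UMAMIT14 were neighbours in the order of levels, in both genotypes, and in the order of folds. UMAMIT32 (AT3G30340, chromosome 3, positions 11956601 to 11959098) had the lowest level, 0.712 FPKM in WT against 0.141 FPKM in pkl. Its 5.06-fold difference (log2 fold change -2.34) had the q-value nearest to the threshold of 0.05, 0.0254 in the authors' deposited table. With the depth unknown, the number of fragments behind levels under 1 FPKM cannot be given, and 4 of the 13 loci were under 1 FPKM in pkl.

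The window of UMAMIT32 is shown for its uninterrupted GA repeat of 16 bases, read here as TC. It lies at chr3:11956208-11956457 on the plus strand.
UMAMIT32: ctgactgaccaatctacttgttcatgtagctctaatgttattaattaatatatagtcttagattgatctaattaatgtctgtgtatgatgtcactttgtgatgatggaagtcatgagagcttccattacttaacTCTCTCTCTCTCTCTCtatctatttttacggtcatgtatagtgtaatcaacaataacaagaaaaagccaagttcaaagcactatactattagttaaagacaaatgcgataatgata

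Summed over the 13 loci, the level was 140.1 FPKM in WT against 60.2 FPKM in pkl, 2.32-fold lower. The loss was carried by few genes. UMAMIT20 made up 26.7% of the summed difference of 79.8 FPKM, UMAMIT17 17.4% and UMAMIT30 13.5%. UMAMIT32, which ranked 3 by fold, made up 0.716%. The 4 loci under 5 FPKM in WT had a median fold of 3.67 and the 9 loci above it 1.92. Only loci that passed the authors' test were listed, and the effect of this selection on these medians was not tested.

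The 14 genes with a row and the 30 without had gene models of overlapping size. Their coding sequences had 1011 to 1155 and 1020 to 1209 bases, and their main transcripts 4 to 7 and 6 to 8 exons. For 11 of the 14 genes with a row, the member closest in coding sequence had a row too, and for 4 of the 30 without a row (UMAMIT11, UMAMIT15, UMAMIT18 and UMAMIT28) it had one. For UMAMIT14, UMAMIT20, UMAMIT32, UMAMIT33 and UMAMIT34 the closest identity was only 61.6% to 64.2%, against a median of 57.9% over all pairs. Of the whole family 31.8% had a row. These counts were not tested. Among 13 pairs of mutually closest members, 4 had both genes listed (UMAMIT12 with UMAMIT13, UMAMIT26 with UMAMIT27, UMAMIT30 with UMAMIT31, and UMAMIT33 with UMAMIT34). Another 2 pairs had 1 gene listed (UMAMIT17 with UMAMIT18, and UMAMIT10 with UMAMIT11). Tandem copies share a position as well as a sequence, so these pairs are not independent of the clusters above. UMAMIT26 and UMAMIT27 share 1 row, so their being listed together was fixed by the merged locus. Each of the 4 pairs with both genes listed also enters the count of 11 from both sides.

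Over the windows before the start, the GAGA repeat was present in 3 of 14 members with a row (21.4%), in 5 of 30 members without (16.7%) and in 20.6% of 27443 protein-coding genes. The G-box was present in 1 of 14 (7.14%), in 2 of 30 and in 6.49% of all genes. ACTCAT was present in 1 of 14, UMAMIT10, in 3 of 30 and in 12.3% of all genes. The telo-box was in none of the 44 windows and in 4.49% of all.

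The members without a row were UMAMIT1, UMAMIT2, UMAMIT3, WAT1 (UMAMIT5), UMAMIT6, UMAMIT7, UMAMIT8, UMAMIT9, UMAMIT11, UMAMIT15, SIAR1 (UMAMIT18), UMAMIT19, UMAMIT21, UMAMIT22, UMAMIT23, UMAMIT24, UMAMIT25, UMAMIT28, UMAMIT29, UMAMIT35, UMAMIT36, UMAMIT37, UMAMIT38, UMAMIT40, UMAMIT41, UMAMIT42, UMAMIT44, UMAMIT45, UMAMIT46 and UMAMIT47. A missing row can mean a higher level, no call or no test, and the table does not separate these.

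Of 3 lists of other genes that handle amino acids, 37.5%, 20% and 20% had a row, beside 14.8% over all tests. The lists are small and these shares were not tested, so nothing is read from them. GLUTAMINE DUMPER genes encode small membrane proteins whose overexpression makes plants secrete glutamine. Of 8 genes in that list, which includes their ubiquitin ligase partner LOG2, 3 (37.5%) had a row. GDU5 went from 7.82 to 1.84 FPKM, 4.25-fold lower, GDU1 from 14.4 to 7.81 FPKM, 1.85-fold lower, and GDU3 from 42.3 to 34.1 FPKM, 1.24-fold lower. Of 25 other amino acid transporter genes, mostly importers, 5 (20%) had a row. AAP2, a permease that moves amino acids from xylem to phloem, went from 53.2 to 26.5 FPKM, 2.01-fold lower. The permease gene AAP4, the proline transporter gene PROT1 and the cationic amino acid transporter genes CAT3 and CAT6 were 1.29-fold to 1.51-fold lower.

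Of 15 genes of glutamine, glutamate and asparagine metabolism, 3 (20%) had a row. ASN1, an asparagine synthetase gene induced in the dark, went from 196 to 39.8 FPKM, 4.94-fold lower. GLU1, the ferredoxin-dependent glutamate synthase, was 1.31-fold lower and GS2, the chloroplast glutamine synthetase, 1.21-fold lower. The median fold was 1.85 for the glutamine dumper genes, 1.41 for the other transporters and 1.31 for metabolism, against 2.83 for the UMAMIT loci. The medians were not tested against each other.

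**Figure D4:**
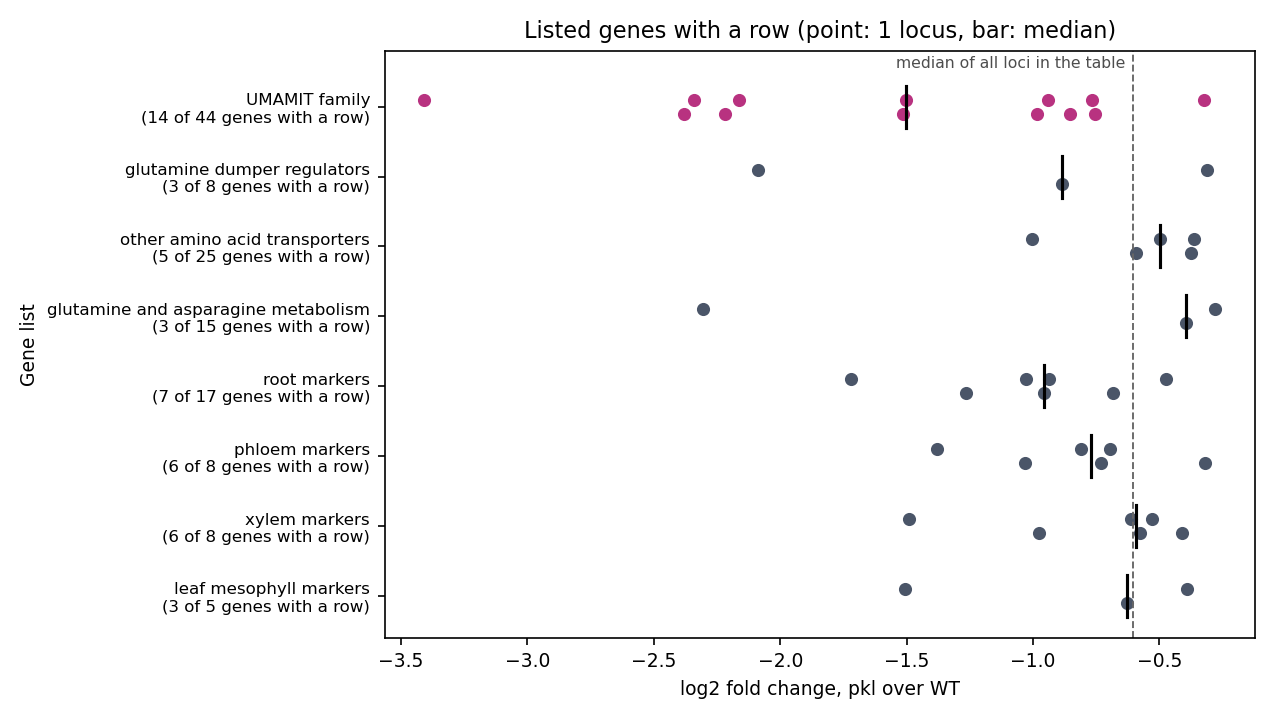
The log2 fold change of pkl over WT for each listed locus (point) of the UMAMIT family, of 3 lists of amino acid genes and of 4 lists of tissue markers, with the median of each list (bar). The dashed line is the median of all loci in the table, -0.60. The lowest point is UMAMIT17, at -3.41.

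Markers of the vascular tissue, where many UMAMIT genes are known to act, were listed as lower in the same seedlings. So were markers of root and of leaf mesophyll, so lower markers were not particular to vascular tissue. The shares with a row, beside 14.8% over all tests, were 75% for 8 phloem and for 8 xylem markers, 41.2% for 17 root markers and 60% for 5 leaf mesophyll markers. Of the phloem markers, 6 had a row, with a summed level of 250 FPKM in WT against 137 FPKM in pkl and a median fold of 1.71. SUC2, the sucrose importer of companion cells, was 2.60-fold lower, and SWEET12 and SWEET11, which release sucrose for phloem loading, were 2.04-fold and 1.62-fold lower. APL, a transcription factor of phloem identity, HA3, a proton pump, and SEOa, a sieve element protein, were 1.66-fold, 1.75-fold and 1.25-fold lower. SULTR2;1 and SEOR1 had no row.

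Of the xylem markers, 6 had a row, with a median fold of 1.51. In the 5 loci of 1 gene the summed level was 70.7 FPKM in WT against 41.8 FPKM in pkl. LAC11, a laccase of lignin formation, was 2.81-fold lower, and the protease genes XCP1 and XCP2 were 1.96-fold and 1.53-fold lower. The laccase gene IRX12 and the cellulose synthase gene IRX1 were 1.49-fold and 1.44-fold lower, and the locus of CESA4 also holds AT5G44020. VND7 and IRX3 had no row.

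Of the root markers, 7 had a row (summed levels of 80.3 and 38.7 FPKM in 6 loci of 1 gene, median fold 1.94), and of the leaf mesophyll markers 3 (10783 and 7388 FPKM, median fold 1.55). The largest fold was 3.30 for the root markers (CYP705A5) and 2.84 for the mesophyll markers (LHCB2.3). Both lay above the largest of the phloem markers (2.60) and of the xylem markers (2.81). The median fold over the whole table was 1.52. No listed marker was at 0 in either genotype. The part of these tissue markers in the lower UMAMIT levels was not tested. In RNA of whole seedlings, fewer cells of a type and less RNA per cell cannot be told apart.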

How the data were processed

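Reads had been processed with TopHat, Cufflinks 2.1.1 and Cuffdiff 2.1.1 for the TAIR10 build, per the submitters' processing notes. The deposited table gives FPKM, 1 value per genotype, per the file headers. It also gives the authors' log2 fold change of pkl over WT, which differed by at most 1.23e-05 from the ratio of the FPKM columns, the authors' p-value and q-value, and the authors' signed test score, which was not used. Depth per library is unknown, and no test was run here.

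The number of tests, 19554, was sought from 2896 to 38999 as the one that made p over q times the number a whole rank (largest gap 0.017, next best 0.311). On simulated data the true number was found in 20 of 20 tables. Names, gene models and sequences came from the RefSeq annotation of TAIR10.1, where all 2740 comparable loci of 1 gene overlapped their gene. Starts are counted from 1. Coding sequences of the longest form, and promoter windows of 250 bases, were aligned globally (Biopython 1.88: match 1, mismatch -1, gap opening -3, extension -0.5).

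The members and lists were chosen with earlier results of these data known. Every member and every related gene with a row was named. Alternatives were q under 0.01, minimum folds and levels, pseudocounts, other gaps for clusters and leaving out merged loci.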

Additional observations from a re-analysis of the deposited data

How the results depend on the processing

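Of the 44 genes, 14 had a row (31.8%, beside 14.8% of all tests). The count became 7 with a minimum of 2-fold (15.9% beside 3.83%) and 12 with q under 0.01 (27.3% beside 11.0%). It was 10 with at least 1 FPKM in both genotypes (22.7% beside 13.3%) and also with at least 5 FPKM in WT (22.7% beside 11.6%). Without merged loci it was 12 (27.3% beside 14.1%). Nothing is read from these shares. The median log2 fold change of -1.50 became -2.22 with the 2-fold minimum. That minimum filters on the fold itself, and the median over the whole table went from -0.60 to -1.38. The UMAMIT median was -0.94 with either level minimum, since both kept the same 9 loci, and -1.51 without the merged locus. With pseudocounts of 0.1 and 1 FPKM it was -1.39 and -0.86. The level minima and pseudocounts moved it since the listed loci of low level had large folds. A pseudocount shrinks a fold but cannot change which genotype is higher. UMAMIT32 moved most with 1 FPKM, to -0.59. The related lists kept 1 gene each of 3, 5 and 3 with the 2-fold minimum. Gaps of 10 or 50 kb also gave 6 clusters. Without the UMAMIT33 and UMAMIT34 loci, an alternative chosen after seeing the data, 12 members were left with the median at -1.50.

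Leaving out each replicate was not run, since single libraries have no value in the table. No paired analysis was possible because libraries were pooled by genotype. Unknown depth limits the 4 loci under 1 FPKM in pkl most.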
